A study of Sus scrofa with 3 samples.

Results

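Genes of the cilium and of the sperm flagellum were examined in spermatogonia sorted for SSEA4, a glycolipid of the cell surface. A gene was taken as a member when its symbol in the deposited table began with DNAH, DNAI, CFAP, RSPH, IFT, BBS, TEKT or DNAAF followed by a digit, or with DNAL. This gave 69 of 18730 genes: 7 DNAH, 2 DNAI, 3 DNAL, 6 RSPH, 4 TEKT, 26 CFAP, 4 DNAAF, 12 IFT and 5 BBS genes. The rule reads the symbol and no expression value, although the gene set was picked with earlier results of these data known. The samples form 1 group of 3 libraries, here S1, S2 and S3, of SSEA4-positive spermatogonia, labelled as germ cells from pigs aged 90 days. The labels name no treatment, genotype or strain. Nothing in them ties the libraries to different pigs, so the p-values reflect only the spread of these libraries, which may be technical. No other population was analysed here, so no level below is a difference between populations.

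Levels are in FPKM, which scales the fragments of a gene by its length and by the mapped total. The name of the table says TPM, and the columns of S1, S2 and S3 sum to 859642, 855276 and 781871. The table holds no counts, so the depth is unknown and no counting interval can be given. Each gene's mean of log2(FPKM + 1) was tested against the level of 1 FPKM with limma over the 17949 genes above 0 in at least 1 library, with Benjamini-Hochberg adjustment. All 11 measured markers of undifferentiated spermatogonia lay above 1 FPKM, and the highest, ELAVL2, averaged 140.1 ± 10.2 FPKM (SD, n = 3). The lowest were GFRA1, at 2.96 ± 0.742 FPKM and percentile 45.4, and ZBTB16, at 5.16 ± 0.406 FPKM and percentile 54.8 of all genes tested. Of the markers of other cells, 8 of 11 Sertoli markers (72.7%) and 5 of 14 spermatid markers (35.7%) lay above the level, where 65.6% of all genes tested did. In bulk RNA, fewer cells of a type and less RNA per cell cannot be told apart.

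Cilia and flagella share a core, the axoneme, a ring of microtubule doublets. In motile cilia and in the sperm tail, outer and inner dynein arms on the doublets drive the beat, radial spokes and a central apparatus regulate it, and tektins and other inner proteins stiffen the doublets. Dynein arms are put together in the cytoplasm by assembly factors before they enter the cilium. Intraflagellar transport, by IFT particles, carries building blocks along the axoneme of motile and of immotile primary cilia, and the BBSome sorts membrane proteins of the cilium. The flagellum itself is built in spermatids, well after the spermatogonial stage, while many dividing or resting somatic cells carry a primary cilium.

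As pooled sets, the axonemal members had a lower median than the transport members, but the classes within each set differed. The 48 axonemal members (DNAH, DNAI, DNAL, RSPH, TEKT and CFAP) had median levels of 2.23, 2.21 and 2.24 FPKM in S1, S2 and S3, against 20.5, 20.4 and 22.0 FPKM for the 17 IFT and BBS members. The axonemal set follows symbols: 10 of its CFAP genes were not assigned to an axonemal structure here, and CFAP300 was assigned to dynein assembly. On the scale of mean log2(FPKM + 1), the axonemal members differed from the IFT and BBS members by -2.10 in each library, with a mean of -2.10 ± 0.0033 (SD, n = 3). The SD covers the spread between libraries only, since every library holds the same genes. No test was made of this difference, since the classes were chosen with earlier results of these data known. Ranks do not change with any scaling of a whole library. By percentile among the 17949 genes, averaged over the 3 libraries, the median axonemal member stood at 41.3 and the median IFT or BBS member at 79.0. By class the median percentile was 35.4 for DNAH, 28.3 for DNAI, 32.2 for RSPH and 28.8 for TEKT. It was 50.5 for the 26 CFAP genes, near the middle of all genes, and 76.9 for the 3 DNAL genes. It was 84.5 for IFT and only 54.7 for BBS, with DNAAF at 56.9.

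**Figure D1:**
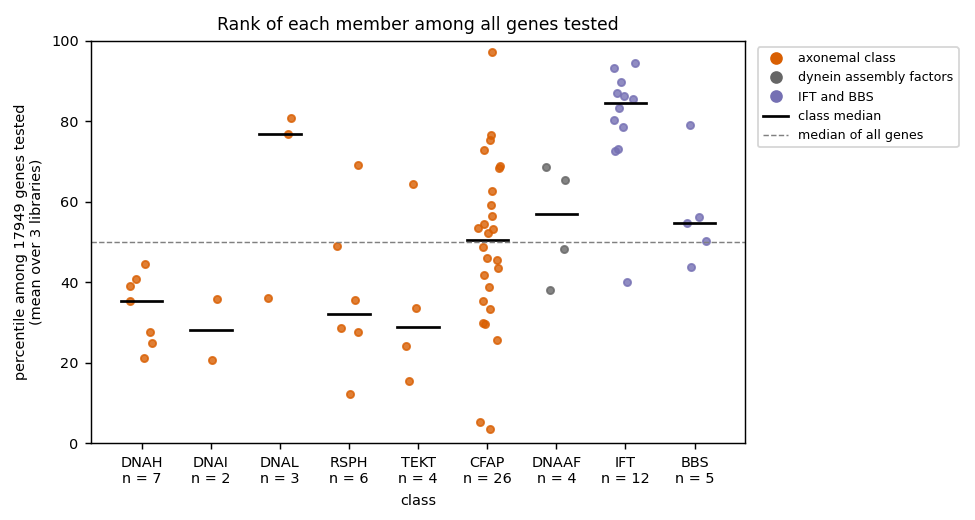
Percentile of each member among the 17949 genes tested (vertical axis, mean over 3 libraries) by class (horizontal axis), with 1 point per gene, a bar at the class median and a dashed line at the median of all genes. The DNAH, DNAI, RSPH and TEKT medians lie between 28.3 and 35.4, the CFAP, BBS and DNAAF medians at 50.5, 54.7 and 56.9, and the DNAL and IFT medians at 76.9 and 84.5.

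The 2 sets overlapped at the level of single genes. By mean FPKM, 23 of 48 axonemal members lay under the lowest transport gene, IFT140, and 2 of 48 lay above the median of the 17 transport genes. Those 2 were CFAP97, not assigned to an axonemal structure here, and DNAL4, placed by its name only. In turn, 16 of 17 transport genes lay above the axonemal median, IFT140 being the exception. A mean of at least 10 FPKM was reached by 18.8% of the axonemal members and by 70.6% of the transport members.

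Against the level of 1 FPKM, 53 of 69 members lay above (76.8%, where 65.6% of all genes tested did), 12 lay below (17.4%, against 28.5% of all genes) and 4 were not told apart from it. Of the 48 axonemal members, 32 lay above (66.7%), 12 below (25.0%) and 4 neither, which was near the shares of all genes. All 17 transport genes lay above, and the 12 members below were all axonemal. At a level of 5 FPKM, 12 of 48 axonemal members (25.0%) and 12 of 17 transport members (70.6%) lay above, against 42.5% of all genes, and 31 axonemal and 3 transport members lay below, against 50.9%. A reduced table left out the genes of the mitochondrial genome and of ribosomal proteins and scaled each library to 1000000. The all-gene median shifted there by 1.38 on the log2 scale. The values left were raised by 1 factor per library while the level stayed at 1 FPKM, so more genes pass it by scaling alone. In the reduced table, 62 members lay above 1 FPKM and 4 below, 41 and 4 of them axonemal, against 13667 and 2924 of the 17874 genes tested there. The 4 members still below were RSPH9, TEKT5, CFAP157 and CFAP73.

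**Figure D2:**
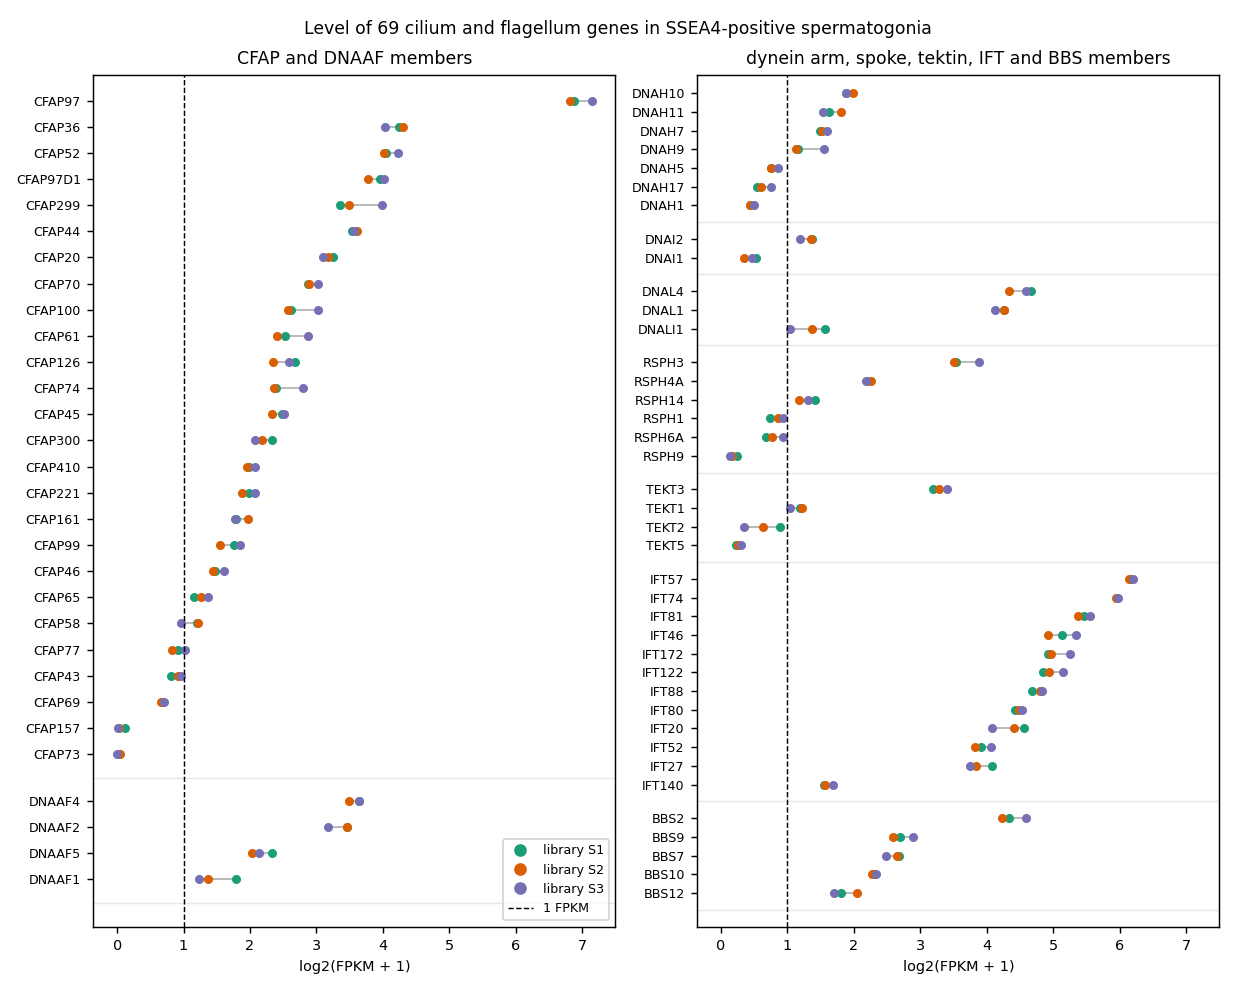
Level of each of the 69 members as log2(FPKM + 1) (horizontal axis) in the libraries S1, S2 and S3 (points), grouped by class, with 1 FPKM as a dashed line. The 12 IFT and 5 BBS genes lie to the right of the line in every library, while 3 DNAH, 1 DNAI, 3 RSPH, 2 TEKT and 3 CFAP genes lie to its left by the test.

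The 7 dynein heavy chains among the members, the motor subunits of the arms, all had means of at most 2.78 FPKM. DNAH10, of the inner arm, was the highest, with 2.68, 2.95 and 2.69 FPKM in S1, S2 and S3. DNAH11, an outer arm heavy chain, had 2.08, 2.51 and 1.89 FPKM, and DNAH7, of the inner arm, had 1.80, 1.88 and 2.02 FPKM in the same libraries. These 3 chains were above 1 FPKM in each library, and their libraries stayed close to each other. DNAH9, an outer arm chain, had 1.24, 1.18 and 1.93 FPKM in S1, S2 and S3, with S3 apart from the others. Its call above the level (limma, adjusted p = 0.0406) was lost without S1 (adjusted p = 0.0840) and without S2 (adjusted p = 0.0735).

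The other 3 heavy chains lay below the level. DNAH17, an outer arm heavy chain of the sperm flagellum, had 0.453, 0.522 and 0.677 FPKM in S1, S2 and S3. DNAH1, of the inner arm, was the lowest heavy chain, at 0.358, 0.351 and 0.406 FPKM. DNAH5, the heavy chain of the outer arm in airway cilia, had 0.678, 0.690 and 0.806 FPKM. All 9 values of these chains were under 1 FPKM. Their log2 differences from the level were -0.37 for DNAH17, -0.54 for DNAH1 and -0.21 for DNAH5, and in the reduced table each was positive, at 0.41, 0.09 and 0.68.

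The intermediate chains of the outer arm, which tether the motor to the doublet, matched the heavy chains in level. DNAI2 had 1.58, 1.56 and 1.27 FPKM in S1, S2 and S3, and DNAI1 had 0.436, 0.274 and 0.382 FPKM. DNAI2 was higher than DNAI1 in every library, and the 2 genes lay on opposite sides of 1 FPKM. The call of DNAI2 (limma, adjusted p = 0.00634) was lost without S1 (adjusted p = 0.0532) and without S2 (adjusted p = 0.0613). DNAI1 was not told apart from the level in the reduced table, where its log2 difference was 0.07.

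The light chains split by gene. DNAL4, a light chain by its name, had 24.3, 19.3 and 23.2 FPKM in S1, S2 and S3, and DNAL1, which binds an outer arm heavy chain, had 18.1, 18.1 and 16.4 FPKM. DNALI1, a light chain of the inner arm, had 1.95, 1.58 and 1.05 FPKM. DNAL4 and DNAL1 were thus at the level of the transport genes and apart from the other 10 dynein arm members, which reached at most 2.95 FPKM in any library. The call of DNALI1 above the level (limma, adjusted p = 0.0336) was lost without S1 (adjusted p = 0.168) and without S2 (adjusted p = 0.163).

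Radial spoke genes also differed within 1 structure. RSPH3, of the spoke stalk, had 10.6, 10.3 and 13.7 FPKM in S1, S2 and S3, and RSPH4A, of the spoke head, had 3.57, 3.79 and 3.52 FPKM. RSPH14 had 1.66, 1.25 and 1.47 FPKM. The other 3 spoke head genes lay below the level in every library. RSPH1 had 0.671, 0.805 and 0.914 FPKM, RSPH6A, of sperm spokes in the mouse, had 0.604, 0.695 and 0.905 FPKM, and RSPH9 had 0.181, 0.126 and 0.0930 FPKM. In the RefSeq table RSPH4A, RSPH14, RSPH1 and RSPH6A overlap another protein-coding gene, while RSPH3 and RSPH9 do not. What reads of those genes add was not tested.

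Of these spoke calls, those of RSPH1 and RSPH6A were weak. RSPH1 (limma, adjusted p = 0.0359) was not told apart from the level without S1 (adjusted p = 0.191) or without S2 (adjusted p = 0.128), and RSPH6A (limma, adjusted p = 0.0189) was not without S1 (adjusted p = 0.113) or without S2 (adjusted p = 0.109). RSPH14 (limma, adjusted p = 0.00858) lost its call without S1 (adjusted p = 0.0617). In the reduced table RSPH1 and RSPH6A lay above the level, at log2 differences of 0.77 and 0.69.

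Among the tektins, filament proteins inside the doublets, TEKT3 stood alone. TEKT3 had 8.12, 8.73 and 9.57 FPKM in S1, S2 and S3, TEKT1 had 1.28, 1.33 and 1.05 FPKM, and TEKT5 had 0.174, 0.195 and 0.227 FPKM. TEKT2 had 0.856, 0.555 and 0.264 FPKM in those libraries. No tektin other than TEKT3 exceeded 1.33 FPKM in any library, and the values of TEKT2 were spread the most. TEKT1 was not told apart from the level (limma, adjusted p = 0.0639), but lay above it without S3 (adjusted p = 0.0176) and after each library was rescaled to 1000000 (adjusted p = 0.00469). TEKT2 lay below it (limma, adjusted p = 0.0167), was not told apart from it without S2 (adjusted p = 0.0865) or without S3 (adjusted p = 0.0575), and stood at a log2 difference of 0.38 in the reduced table.

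The CFAP symbol gathers proteins of different places in the cilium, and the 26 CFAP members had the widest range of any class, with means between 0.0168 and 123 FPKM. In all, 20 lay above 1 FPKM (76.9%, where 65.6% of all genes tested did), 3 below (11.5%, against 28.5%) and 3 were not told apart from it. CFAP97 was the highest member of the whole set, with 117, 112 and 141 FPKM in S1, S2 and S3. CFAP36, which binds the ciliary GTPase ARL3, had 18.0, 18.8 and 15.3 FPKM, and CFAP52, a protein inside the doublets, had 15.5, 15.2 and 17.8 FPKM. CFAP97 made up 15.4%, 15.3% and 17.2% of the summed FPKM of the 69 members in S1, S2 and S3, while the 7 dynein heavy chains together made up 1.23%, 1.37% and 1.28%. CFAP97D1 had 14.5, 12.7 and 15.2 FPKM in the same libraries.

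Among the CFAP genes assigned to a structure here, all 5 doublet inner proteins lay above 1 FPKM, where 65.6% of all genes tested did. Besides CFAP52 they were CFAP20 at 8.05 ± 0.474 FPKM, CFAP126 at 4.82 ± 0.675, CFAP45 at 4.45 ± 0.363 and CFAP161 at 2.60 ± 0.266 (SD, n = 3 each). Of 5 genes of the central apparatus, 4 lay above, with CFAP74 highest at 4.78 ± 1.02 FPKM and CFAP65 lowest at 1.41 ± 0.173. CFAP69 lay below at 0.600 ± 0.0244 FPKM (limma, adjusted p = 0.000377). Its ID is named STEAP2, a neighbouring gene, in the reference table, so its value is uncertain, and its log2 difference of -0.32 became 0.50 in the reduced table. The call of CFAP65 above the level (limma, adjusted p = 0.00973) was lost without S2 (adjusted p = 0.0696). Of the 10 CFAP genes not assigned here, 7 lay above 1 FPKM, 1 below and 2 were not told apart. These counts depend on the assignment used.

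Partner genes were not at 1 level. CFAP44 and CFAP43 encode the tether of an inner dynein arm. CFAP44 had 10.6, 11.2 and 10.8 FPKM in S1, S2 and S3, against 0.759, 0.880 and 0.954 FPKM for CFAP43. In the same way CFAP100 and CFAP73 act together near the inner arm in the alga Chlamydomonas. CFAP100 had 5.13, 4.96 and 7.11 FPKM, against 0.0170, 0.0333 and 0 FPKM for CFAP73, which was listed at 0 in S3. In both pairs the values of the 2 genes did not overlap. In the RefSeq table CFAP44 overlaps BOC and CFAP43 overlaps SFR1, while CFAP100 and CFAP73 overlap no protein-coding gene.

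The other low CFAP genes differed in how far they lay from the level. CFAP58, of the sperm midpiece, had 1.31, 1.33 and 0.946 FPKM in S1, S2 and S3 (limma, adjusted p = 0.139), and CFAP77 had 0.882, 0.764 and 1.03 FPKM (adjusted p = 0.214). CFAP43 was likewise not told apart from the level (adjusted p = 0.105). CFAP157 had 0.0805, 0.0174 and 0.00963 FPKM. CFAP58 lay above 1 FPKM without S3 (limma, adjusted p = 0.0151) and after rescaling to 1000000 (adjusted p = 0.0105). In the reduced table CFAP77 and CFAP43 lay above it, at log2 differences of 0.89 and 0.86.

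The 4 dynein assembly factors had medians of 7.03, 6.56 and 5.70 FPKM in S1, S2 and S3, against 5.44, 5.04 and 4.58 FPKM for the BBS genes and 26.2, 28.1 and 30.9 FPKM for the IFT genes. DNAAF4 had 11.4, 10.2 and 11.5 FPKM in S1, S2 and S3, DNAAF5 had 4.03, 3.09 and 3.39 FPKM, and DNAAF1 had 2.45, 1.58 and 1.36 FPKM. DNAAF2 had 10.02, 10.03 and 8.001 FPKM, but the reference table names its ID POLE2, a neighbouring replication gene, so that value is uncertain. All 4 lay above 1 FPKM, where 65.6% of all genes tested did. The mean log2(FPKM + 1) of the class differed by -1.45 ± 0.16 from that of the IFT and BBS genes pooled (SD, n = 3). DNAAF1 (limma, adjusted p = 0.0117) lost its call without S2 (adjusted p = 0.0574).

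Transport genes were high across the IFT particle. Its larger complex, IFT-B, carries cargo outward, and the 10 members from it lay between means of 13.8 and 71.0 FPKM. IFT57 had 71.0, 69.6 and 72.3 FPKM in S1, S2 and S3, IFT74 had 61.2, 60.9 and 62.0 FPKM, and IFT81, which binds tubulin together with IFT74, had 43.1, 40.6 and 46.2 FPKM. The 3 libraries were nearly equal in IFT57 and IFT74, with coefficients of variation of 1.95% and 0.956%. IFT46 had 34.0, 29.4 and 39.7 FPKM, and IFT27, a small GTPase, was lowest of IFT-B at 15.8, 13.3 and 12.4 FPKM. The other 5, IFT172, IFT88, IFT80, IFT20 and IFT52, had means between 14.3 and 32.3 FPKM.

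The 2 members of IFT-A, the part that serves the return to the cell body, differed. IFT122 had 27.8, 29.7 and 34.3 FPKM in S1, S2 and S3, against 1.93, 1.96 and 2.22 FPKM for IFT140. IFT140 was the only IFT gene under 5 FPKM, and it lay above 1 FPKM (limma, adjusted p = 0.000291). Its locus overlaps TMEM204 in the RefSeq table.

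The BBS genes were lower than the IFT genes, by -1.87 ± 0.03 in mean log2(FPKM + 1) (SD, n = 3 libraries), and nearer to the axonemal members, which differed from them by -0.78 ± 0.02. BBS2, a subunit of the BBSome, had 19.2, 17.8 and 23.0 FPKM in S1, S2 and S3. BBS9, also a BBSome subunit, had 5.45, 5.04 and 6.44 FPKM, and BBS7, another, had 5.44, 5.29 and 4.58 FPKM. BBS2 was about the level of an IFT gene and the other 2 subunits were not. BBS10 and BBS12, chaperonin-like proteins used in assembling the BBSome, had 3.93, 3.82 and 4.03 FPKM and 2.49, 3.12 and 2.25 FPKM. All 5 lay above 1 FPKM and BBS2 alone above 5 FPKM, where 65.6% and 42.5% of all genes tested did.

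The spread between libraries was described for these genes. The median coefficient of variation was 12.2% over the 69 members, and 11.4% over the 55 with a mean of at least 1 FPKM, against 9.34% for all genes with such a mean. On the scale of FPKM + 1, no member differed over 2-fold between its highest and lowest library, as 1.16% of all genes did, and 4 members (5.8%) differed over 1.4-fold, as did 8.21% of all genes. These were TEKT2, DNAAF1 and DNALI1, given above, and CFAP299, for which S1, S2 and S3 had 9.23, 10.3 and 14.9 FPKM. CFAP299 was highest in S3, and the other 3 were highest in S1 and lowest in S3. A gene under 1 FPKM in every library cannot pass 2-fold on this scale, so the lowest members could not. In FPKM itself, CFAP157, CFAP73 and TEKT2 had coefficients of variation of 108%, 99.4% and 53.0%.

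Of the 69 members, 41 (59.4%) were highest in S3, against 45.2% of all genes tested. The median log2 difference of S3 from the mean of the other libraries was 0.09 over the members and 0.02 over all genes tested. The gap was smaller once members and genes averaging under 1 FPKM were left out. The median difference was then 0.09 over 55 members and 0.05 over 12340 genes. Of these, 32 of the 55 members and 6175 of the 12340 genes were highest in S3. In the reduced table the median difference was 0.03 over the members and -0.03 over all genes. Without the low members and genes it was 0.02 and -0.01 there. CFAP61, of the spoke base, had 4.76, 4.32 and 6.32 FPKM in S1, S2 and S3, and CFAP74, CFAP100, RSPH3 and DNAH9 were also highest in S3. In the other direction, 11 members (15.9%) were highest in S1 and lowest in S3, as were 22.4% of all genes, among them IFT20 at 22.5, 20.4 and 15.8 FPKM. IFT20 overlaps TMEM97 in the RefSeq table.

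Markers of other cells moved between the same libraries. The 11 Sertoli markers summed to 548, 428 and 257 FPKM in S1, S2 and S3, and 8 of 11 were highest in S1 and lowest in S3. The list was led by CLU, at 325, 234 and 125 FPKM, and VIM, at 127, 114 and 64.7 FPKM, neither of which is restricted to Sertoli cells. WT1, SOX9 and GATA4 had means of 42.8, 15.2 and 11.5 FPKM, while FSHR, AMH and DHH lay below 1 FPKM, with means of 0.573, 0.377 and 0.0203. The 14 spermatid markers summed to 106, 31.6 and 50.6 FPKM in S1, S2 and S3. Of these, SPACA1, an acrosomal membrane protein, had 22.5, 19.6 and 28.7 FPKM, and PRM1, a protamine, had 51.0, 1.53 and 11.0 FPKM. SPACA1 was highest in S3 and PRM1 in S1, where alone it exceeded SPACA1. The 11 markers of undifferentiated spermatogonia summed to 389.9, 375 and 493 FPKM. Pachytene spermatocyte markers (7 of 8 above 1 FPKM, 1 below) summed to 119, 122 and 137 FPKM, and the 5 Leydig markers (2 above, 2 below, 1 neither) to 15.5, 12.4 and 4.66 FPKM. The part of these cells in the levels of TEKT2, DNAAF1 and DNALI1, or of any other member, was not tested. Of 9 markers of ciliated epithelium, 4 lay above 1 FPKM (44.4%, where 65.6% of all genes tested did) and 5 below. Above it, TPPP3, CCNO and TP73 had means of 5.62, 4.00 and 2.48 FPKM. FOXJ1, the master regulator of motile cilia, had 4.13, 3.29 and 2.87 FPKM in S1, S2 and S3. Below it, DYDC2 and GMNC had means of 0.441 and 0.409 FPKM. SNTN and CAPS were each listed at 0 in 2 libraries, and MCIDAS had at most 0.0818 FPKM.

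**Figure D3:**
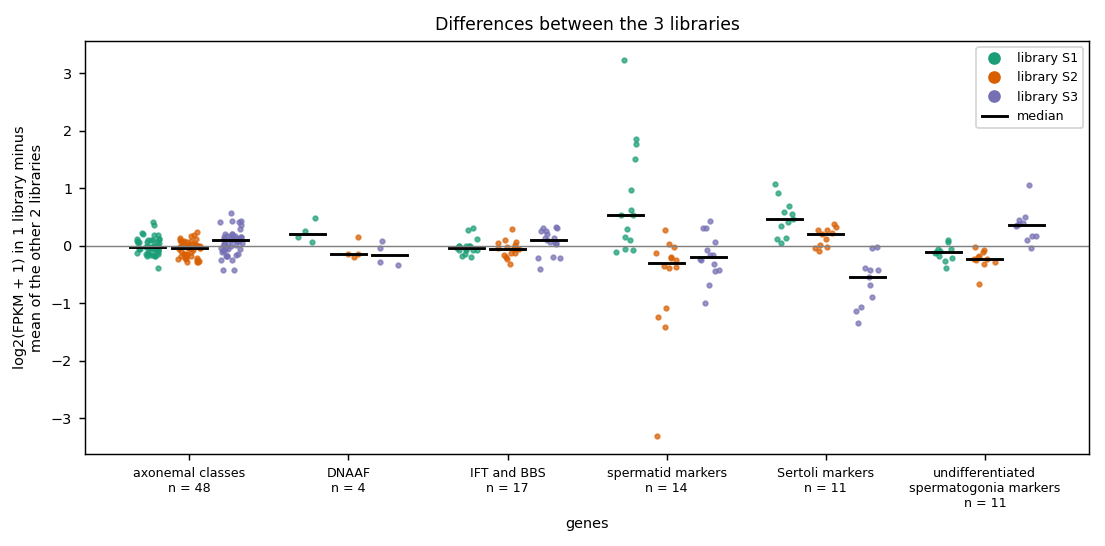
Difference of each gene's log2(FPKM + 1) in 1 library from the mean of the other 2 libraries (vertical axis), for members and for markers of other cells (horizontal axis), with 1 point per gene and a bar at the median. The medians of the axonemal members lie at -0.03, -0.03 and 0.09 in S1, S2 and S3, and those of the Sertoli markers at 0.47, 0.21 and -0.55.

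Genes of the same structures that carry other symbols again had a lower median for the axoneme than for transport, but the IFT and BBS lists did not differ in the way the members did. The IFT list had medians of 11.8, 12.1 and 13.0 FPKM in S1, S2 and S3, and the BBS list 14.6, 12.8 and 12.8 FPKM. Of 7 measured IFT particle genes with other symbols, all lay above 1 FPKM and 6 above 5 FPKM, where 65.6% and 42.5% of all genes tested did. HSPB11 at 90.4 ± 9.56 FPKM and CLUAP1 at 41.8 ± 2.66 were the highest of the 7. Of 4 BBS proteins with other symbols, all lay above 1 FPKM, with LZTFL1, which controls the movement of the BBSome, at 225 ± 29.6 FPKM. All 9 measured motor genes of intraflagellar transport lay above, with the kinesin subunit KIF3A at 49.2 ± 2.18 FPKM. The 29 axonemal genes with other symbols had a median of 3.46, 3.70 and 3.61 FPKM in S1, S2 and S3, with 25 above 1 FPKM, none below and 4 not told apart. ENKUR, at 52.1 ± 0.748 FPKM, and ROPN1L, at 45.2 ± 1.81, were the highest and NME8, at 0.902 ± 0.172, the lowest.

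Genes of the base of the cilium had higher medians than the axonemal members. Of all genes tested, 65.6% lay above 1 FPKM and 42.5% above 5 FPKM. All 23 measured centriole and basal body genes lay above 1 FPKM and 19 above 5 FPKM, with CETN2 at 132 ± 17.0 FPKM and PCM1 at 104 ± 6.69. Of 19 transition zone genes, 18 lay above 1 FPKM, with CEP290 at 46.7 ± 2.87 FPKM, and TMEM107, at 0.977 ± 0.0810, was not told apart from it. All 14 ciliary GTPase and cargo genes lay above, with RAB8B at 107 ± 42.6 FPKM and lowest in S3. Cytoplasmic dynein, the motor of the cell body, had 10 of 11 genes above the level, with its heavy chain DYNC1H1 at 17.9 ± 1.62 FPKM, above every axonemal heavy chain in every library. Of 10 dynein assembly factors with other symbols, 9 lay above 1 FPKM, 3 of them above 5 FPKM, and 1 was not told apart. DYNC1H1 was chosen for mention after its values were seen.

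Regulators of ciliary genes were mixed. Of 16 measured transcription factors, 13 lay above 1 FPKM, 2 below and 1 was not told apart, where 65.6% of all genes tested lay above and 28.5% below. RFX2, which acts on flagellar genes in mouse spermatids, averaged 7.35 ± 0.730 FPKM, and RFX3, of ciliated cells, averaged 5.44 ± 1.31 FPKM (SD, n = 3 each). GMNC and MCIDAS, which start the multiciliated cell program, lay below the level, at 0.409 ± 0.0443 and 0.0578 ± 0.0395 FPKM. RFX2 and RFX3 were chosen for mention after their values were seen.

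**Figure D4:**
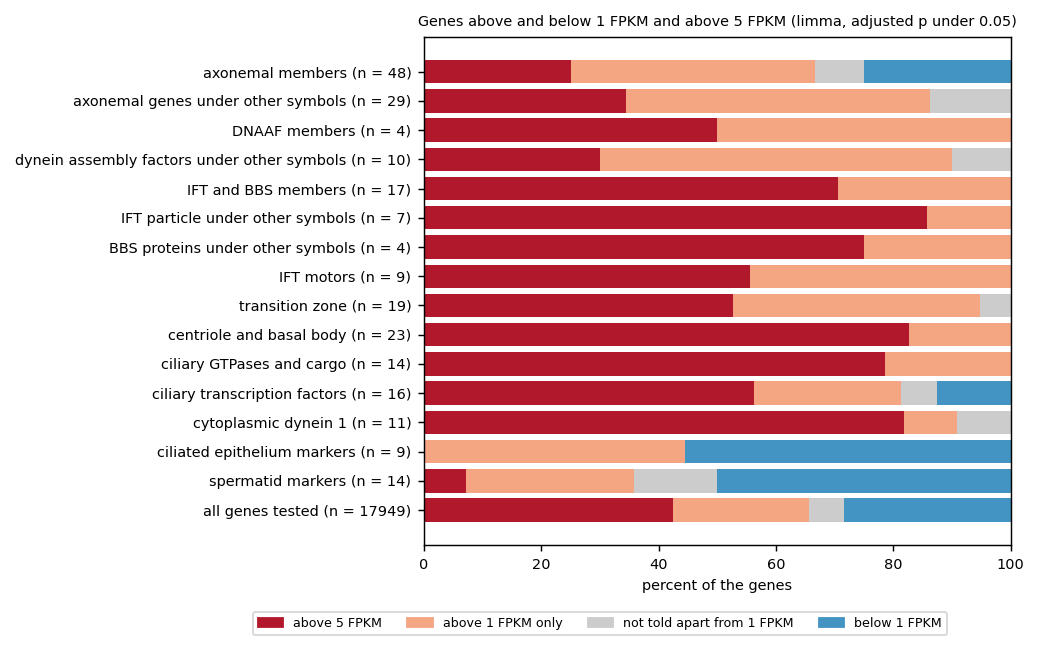
Share of genes (horizontal axis, percent) above 5 FPKM, above 1 FPKM only, not told apart from 1 FPKM and below 1 FPKM, for the members by group, for lists of other genes of the cilium and for all genes tested (rows). The share below 1 FPKM is 25.0% for the axonemal members, near the 28.5% of all genes, and 0 for the IFT and BBS members and the basal body genes.

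A further 32 genes carry a matching symbol only in the reference table of Ensembl names, 13 of them without any symbol in the deposited table and 19 under another one. The 32 are not separate from the lists above, which also hold TTC26, WDR63, WDR78, LRRC6 and PIH1D3. Their 23 axonemal genes were higher than the axonemal members, with medians of 5.35, 5.38 and 4.82 FPKM in S1, S2 and S3, and the 4 IFT and BBS genes among them had medians of 8.75, 9.02 and 7.84 FPKM. CFAP210, a doublet inner protein listed as CCDC173, had 218, 216 and 240.1 FPKM, more than any of the 69 members. Of the 23 axonemal genes, 19 lay above 1 FPKM (82.6%, where 65.6% of all genes tested did), 3 below and 1 was not told apart. CFAP107 lay below at 0.534 ± 0.118 FPKM, and CFAP95, at 1.09 ± 0.147, was not told apart. Of 3 further heavy chains, DNAH14 had 5.36, 6.14 and 8.14 FPKM, above any heavy chain among the members, while DNAH2 had 1.82 ± 0.236 FPKM and DNAH12 had 1.25 ± 0.117. BBS4, a BBSome subunit, had 37.8, 38.6 and 45.1 FPKM. With these genes added, which was decided only after seeing the data, the difference of the axonemal from the transport genes was -1.78 ± 0.0087 (SD, n = 3), in the same direction in 3 of 3 libraries.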

How the data were processed

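RNA of 3 libraries of SSEA4-positive spermatogonia was depleted of ribosomal RNA, made into directional libraries and read as pairs on an Illumina HiSeq, per the labels' protocols. Per the same protocols, the authors trimmed reads with cutadapt, aligned them with HISAT2 (2.0.4 in the submitters' processing notes) to susScr3 and computed gene-level FPKM with Cuffdiff on an Ensembl annotation. The notes also name Sscrofa11.1, so coordinates were left out. The strand setting used in counting is not given in the sources used here; 22 of the 64 members found in the RefSeq table (Sscrofa11.1) overlap another protein-coding gene, and their values can hold reads of it.

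The columns S1, S2 and S3 could not be tied to single samples and were used as libraries of 1 group. Values under 1e-06 FPKM (170 genes) were set to 0, and 781 genes at 0 in every library were left out. The limma test (3.58.1, R 4.3.3) used an intercept, eBayes with a trend, a two-sided test and a threshold of 0.05, and was checked on simulated data. Since 1 is added before the log, differences of low genes are understated. Reference symbols agreed for 66 members, differed for 2 and were lacking for 1. A row listed as KLHL41, named BBS5 in the reference, was not used. Classes were compared by mean log2(FPKM + 1) per library.

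Members, lists and tests were chosen with earlier results of these data known. Values in every library were given for the 4 highest and 2 lowest members of each class, members not told apart from 1 FPKM and members over 2-fold between libraries on the FPKM + 1 scale; list genes were named from the 3 highest and 2 lowest. Further genes, such as partners of a named gene, were chosen after their values were seen. Alternatives were a pseudocount of 0.1, a mean of at least 0.5 FPKM, no filter, rescaling to 1000000, removal of 13 mitochondrial and 62 ribosomal protein genes, no trend, a level of 5 FPKM and leaving out each library.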

Additional observations from a re-analysis of the deposited data

How the results depend on the processing

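No paired analysis was possible because there is 1 group only. Leaving out each library gave 48 to 55 members above 1 FPKM and 9 to 11 below, and a class difference of -2.10 each time. Tested against 5 FPKM, 7632 of all genes were above and 9130 below, with 26 and 36 members, 12 and 31 of them axonemal, and 3 transport members below. Among genes averaging 0.5 FPKM or more, 798 genes, 5 members and 5 axonemal members lay below 1 FPKM, since most genes under that level are then not tested. In the reduced table these were 2924, 4 and 4. The difference of the axonemal from the IFT and BBS members kept its sign in every alternative run. It was -2.67 with a pseudocount of 0.1, -1.85 with the 0.5 FPKM filter, -2.17 after rescaling to 1000000, -2.45 in the reduced table, -2.77 from medians, -2.05 with DNAAF added, -2.54 without CFAP and -2.21 with IFT and BBS genes of other symbols added. Alternatives chosen after seeing the data gave -1.78 with genes named only by the reference, -2.07 without the members of disputed symbol and -2.21 without CFAP97. Rescaling moved the median of all genes by 0.22 on the log2 scale. It put the class medians of log2(FPKM + 1) at 0.99 for DNAI, 4.46 for DNAL, 1.21 for RSPH, 2.52 for CFAP, 2.99 for DNAAF, 5.13 for IFT and 2.81 for BBS. The reduced table put them at 2.41 for DNAH, 1.76 for DNAI, 5.77 for DNAL, 2.11 for RSPH, 1.81 for TEKT, 3.70 for CFAP, 4.21 for DNAAF, 6.45 for IFT and 4.03 for BBS. The members' median difference from the other libraries was -0.077 in S1 and 0.19 in S3 after rescaling, and 0.0056 in S2 and 0.029 in S3 in the reduced table. Log2 differences from 1 FPKM that changed sign there were 0.68 for DNAH5, 0.41 for DNAH17, 0.093 for DNAH1, 0.070 for DNAI1, 0.77 for RSPH1, 0.69 for RSPH6A, 0.38 for TEKT2, 0.89 for CFAP77, 0.86 for CFAP43 and 0.50 for CFAP69. DNAH5, RSPH1 and RSPH6A were not told apart from 1 FPKM after rescaling, and DNAH9, DNALI1 and TEKT2 were not with no filter. Both scalings to 1000000 raised the values of every library while the level stayed at 1 FPKM. The sign changes in the reduced table follow from that. The cause of the changes with no filter was not tested. The depth is unknown, so what it limits among low genes could not be given.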
